A study of Homo sapiens with 4 samples.

Results

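The tripartite motif (TRIM) family was followed through RNA sequencing of cultured MHCC97H cells, a line derived from human liver cancer, in which the splicing regulator HNRNPM had been depleted. The family was taken as every gene whose symbol is TRIM followed by a number and at most 1 letter, together with CTC-338M12.5 and CTC-338M12.6, which lie antisense to TRIM7. This gave 59 genes, 57 TRIM genes and 2 antisense genes, of 39306 gene names measured. The 4 libraries form 2 groups, with 2 libraries of cells in which HNRNPM is knocked down by a short hairpin RNA (knockdown) and 2 libraries of wild-type cells. Both groups are the same cell line, and the labels name neither the hairpin's sequence nor a control hairpin in the wild-type cells. They do not say whether replicates were separate cultures, so p-values reflect only how far these particular libraries vary, possibly for technical reasons. The series title names TRIM7 and an antisense RNA of TRIM7, and its stated aim is to find splicing controlled by HNRNPM. The deposited tables hold 1 value per gene, in reads scaled to exon length and to library total (RPKM), and so speak of gene levels and not of splice forms.

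TRIM proteins carry a RING finger, B-boxes and a coiled coil at the amino end, and a variable domain at the carboxyl end. The RING finger makes most of them E3 ubiquitin ligases, which pass ubiquitin from an E2 enzyme to a substrate, and the carboxyl domain, most often PRY-SPRY, picks that substrate. Members are known in antiviral sensing and virus restriction, in chromatin repression, and in the cytoskeleton of nerve and muscle. TRIM7 is a PRY-SPRY ligase first described as a partner of glycogenin, the primer of glycogen, and HNRNPM is an RNA-binding protein that favours GU-rich RNA and represses or activates exons.

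The libraries held 12708165 and 11498663 assigned reads in knockdown cells, against 18317579 and 19659106 in wild-type cells, so the knockdown libraries were shallower. HNRNPM itself had 21.8 and 20.4 RPKM in knockdown cells and 51.3 and 51.6 RPKM in wild-type cells, a knockdown of -1.35 ± 0.07 on the log2 scale (SE; limma, adjusted p = 0.0027). Log2 values correlated at 0.989 between the knockdown libraries, at 0.991 between the wild-type libraries, and at 0.968 to 0.969 across groups. Of 8 hepatocyte and liver cancer markers tested, 1 was called higher and 2 lower at an adjusted p under 0.05 (37.5%, beside 24.9% of all genes). The epithelial keratin KRT18 was higher, with 438 and 449 RPKM in knockdown cells and 340.04 and 278 RPKM in wild-type cells (limma, adjusted p = 0.0382). Albumin (ALB) fell to 1.75 and 1.78 RPKM in knockdown cells, against 5.35 and 6.28 RPKM in wild-type cells (limma, adjusted p = 0.0037), and the apolipoprotein gene APOB to 0.902 and 1.03 RPKM, against 2.09 and 1.63 RPKM in wild-type cells (0.0206). HNF4A, a hepatocyte transcription factor, stood at 6.31 to 7.86 RPKM and alpha-fetoprotein (AFP) at 0.267 to 0.436 RPKM in the 4 libraries, and neither was called. Of 6 fibroblast markers, 3 were called higher in knockdown cells (11.1% of all genes were), with the list summing to 3.72 and 3.58 RPKM in knockdown cells and 1.27 and 1.47 RPKM in wild-type cells. LUM alone gave 2.98 and 2.69 RPKM of that sum in knockdown cells and 1.07 and 1.18 RPKM in wild-type cells. Of 3 endothelial markers tested, 2 were called lower (13.8% of all genes were), the list summing to 6.78 and 7.19 RPKM in knockdown cells against 9.55 and 10.2 RPKM in wild-type cells. The defining leukocyte gene PTPRC was at 0 in 3 libraries. The leukocyte list still summed to 62.0 and 60.3 RPKM in knockdown cells and 46.6 and 58.0 RPKM in wild-type cells. Its most abundant gene, at a mean of 56.5 RPKM, was the 1 gene tested and was not called (log2 fold change 0.17). The part of these markers in the family's results was not tested, and in bulk RNA fewer cells with a transcript and less of it per cell cannot be told apart.

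In deposited RPKM, not corrected for composition, the TRIM genes summed to slightly less in both knockdown libraries. On that scale the sums without TRIM28 overlapped between groups. The 57 TRIM genes summed to 330.5 and 337.7 RPKM in knockdown cells, against 359.4 and 353.2 RPKM in wild-type cells, and took 0.173% and 0.176% of reads in knockdown cells against 0.185% in each wild-type library. TRIM28 made up 15.5% and 16.3% of that sum in knockdown cells, against 22.0% and 21.2% in wild-type cells. Without TRIM28 the sums were 279.1 and 282.8 RPKM in knockdown cells and 280.4 and 278.2 RPKM in wild-type cells, which overlapped. These sums were not divided by the factors for composition (1.03 and 1.02 in knockdown, 0.984 and 0.972 in wild type). That division lowers the knockdown sums and raises the wild-type sums, so the overlap holds for deposited values only. The median TRIM gene stood at 2.96 and 3.14 RPKM in knockdown cells, against 2.86 and 2.89 RPKM in wild-type cells. Averaged over the 4 libraries, 9 members reached 10 RPKM, 33 lay between 1 and 10 RPKM, and 17 lay under 1 RPKM. The 10 most abundant per exon length were TRIM28, TRIM47, TRIM8, TRIM16, TRIM31, TRIM16L, TRIM56, TRIM25, TRIM4 and TRIM21. Reads were too few to test TRIM50, TRIM22, TRIM67 and the pseudogene TRIM75P, which was at 0 in knockdown replicate 2 and wild-type replicate 2.

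**Figure D1:**
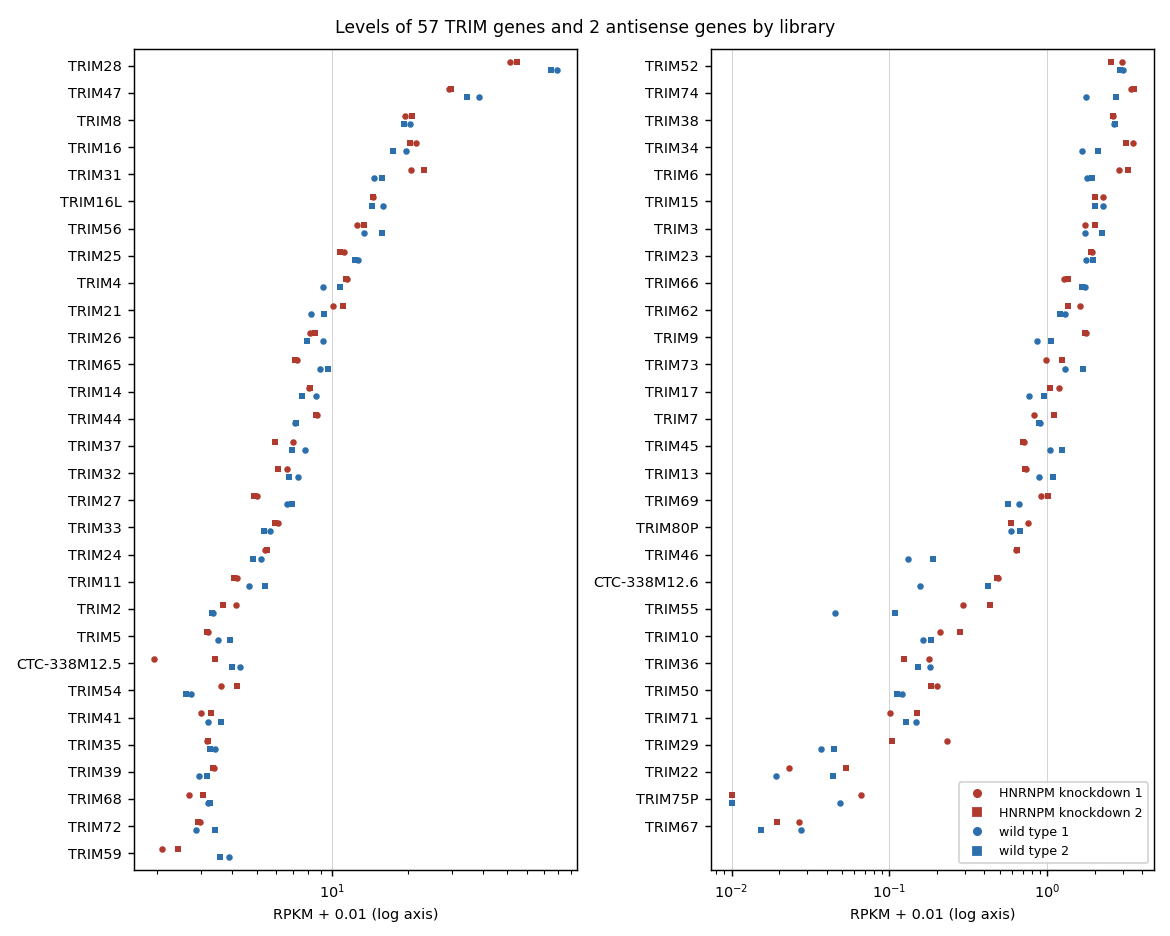
RPKM of each of the 59 members in each library, plotted as RPKM + 0.01 on a log axis and ordered by the mean over the 4 libraries, with knockdown libraries in red and wild-type libraries in blue. TRIM28 leads at 51.3 and 54.9 RPKM in knockdown cells against 79.0 and 74.96 RPKM in wild-type cells, and TRIM46, TRIM55 and TRIM29 show the widest gaps between the colours among genes under 1 RPKM.

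Of the 55 members tested, 6 were called higher and 6 lower in knockdown cells at an adjusted p under 0.05, which is 21.8% of them, and the other 43 were not called. The same limma fit called 24.9% of all 20221 genes tested, 11.1% higher and 13.8% lower, so the family's share lay near the background. On values scaled to total reads only, all genes split into 2783 higher and 2234 lower, in place of 2240 and 2792, and the family into 7 and 6. Fold changes are on the log2(RPKM + 0.1) scale after correction for composition, and genes at low levels change by more than this scale shows. The family's median log2 fold change was -0.06, beside -0.03 over all genes, with 24 members above 0 and 31 below (28 and 27 on values scaled to total reads only). In 22 of the 55 both knockdown libraries lay above both wild-type libraries (40%, against 36.2% of all genes), and in 18 both lay below (32.7%, against 31.4%). These counts were made on deposited RPKM, without the correction for composition. For a single gene, permuting 2 libraries against 2 gives an exact p of 0.333 at the least, so the calls lean on the spread pooled over genes. Fits that leave out a library called a smaller share of all genes than the reported fit. Calls lost in those fits, given below gene by gene, are thus not particular to the family. With no filter on low values 39306 genes were tested, 4.59% of them were called, and TRIM28 and TRIM27 were the members still called.

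**Figure D2:**
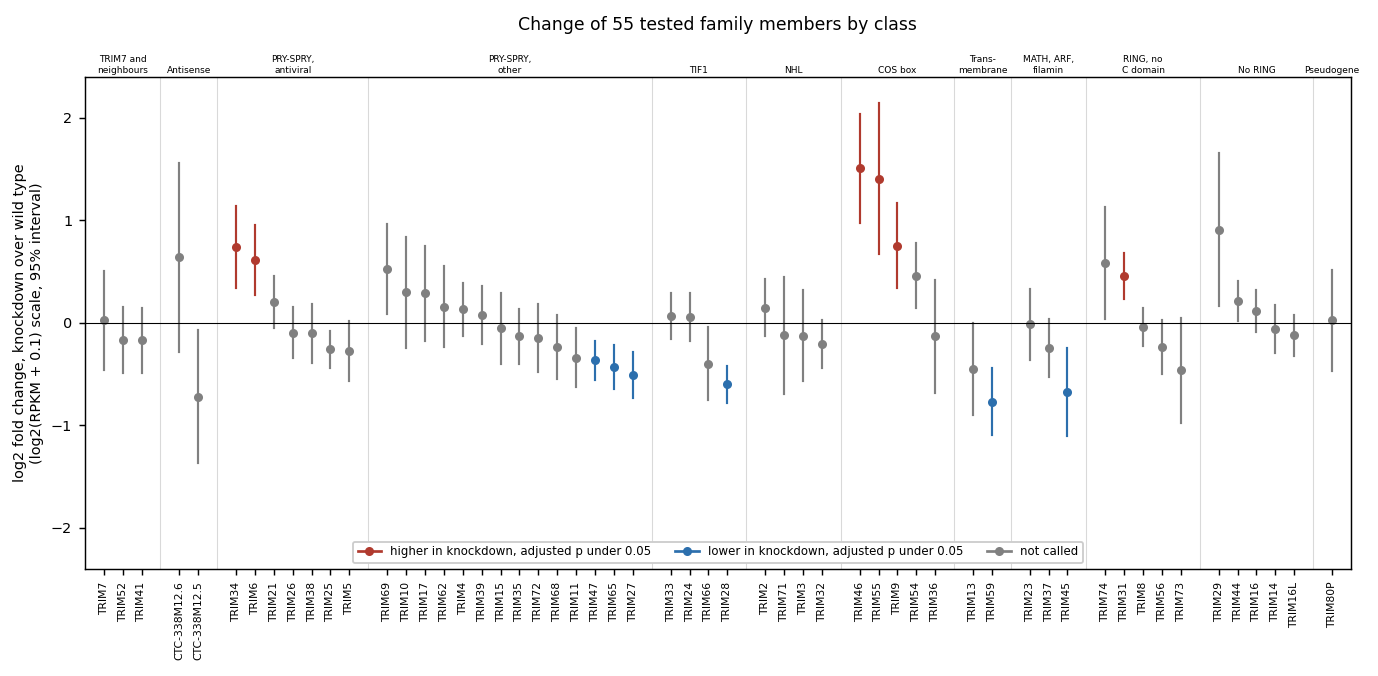
Log2 fold change, knockdown over wild type, of the 55 tested members on the log2(RPKM + 0.1) scale, with 95% intervals from limma, grouped by domain class. Red marks the 6 called higher, blue the 6 called lower and grey the rest, with TRIM46 highest at 1.51 and TRIM59 lowest at -0.77.

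TRIM7, the member named in the series title, was not called at the gene level. It had 0.815 and 1.09 RPKM in knockdown cells, from 76 and 92 reads, and 0.893 and 0.880 RPKM in wild-type cells, from 120 and 127 reads. Both wild-type values lay between the knockdown values, so the groups overlapped. Its log2 fold change was 0.02 ± 0.19 (SE), with a 95% interval from -0.46 to 0.51 (limma, adjusted p = 0.942). As a ratio of knockdown over wild type on the same scale, that interval ran from 0.726 to 1.42. Any change within it remains compatible with these 4 libraries. The direction of so small a change rested on 1 library, at -0.17 without knockdown replicate 2 and 0.22 without knockdown replicate 1. Changes in exon use within TRIM7 cannot be read from a single value per gene.

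TRIM7 lies on the minus strand of chromosome 5 at 181193924 to 181205293 in GRCh38, and the antisense genes lie on the plus strand across it. CTC-338M12.5 (181191924 to 181194429) enters TRIM7's span from the far end, and 196 of its 486 exon bases lie opposite TRIM7's last exon. RefSeq places it wholly within TRIM7-AS2, with 2506 bases shared. CTC-338M12.6 (181195496 to 181203103) sits inside TRIM7's span, and 336 of its 1484 exon bases lie opposite TRIM7 exons. It shares 3029 bases of span with RefSeq's TRIM7-AS1 and 1386 with TRIM7-AS2. Seen from TRIM7, 532 of 7338 exon bases are covered by an antisense exon. The library kit keeps strand, but how counting treated strand is not stated, so reads of these 3 genes may have been exchanged where their exons overlap.

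The exons of CTC-338M12.5 that precede its overlap with TRIM7 are shown because they overlap no exon of another gene in the tables. GENCODE release 29 (GRCh38) gives it 2 forms that differ in their first exons and join the same last exon, and the tables do not separate them. Form A has 289 bases in 2 exons and form B 392 bases in 3 exons. Lower case marks bases with no TRIM7 exon opposite, and capitals mark the first 30 bases of the last exon, which lies opposite the untranslated end of TRIM7.
Form A, exon 1, chr5:181191924-181192016, plus strand: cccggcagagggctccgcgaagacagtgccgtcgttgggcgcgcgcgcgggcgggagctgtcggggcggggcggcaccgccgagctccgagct
Form B, exon 1, chr5:181192070-181192140, plus strand: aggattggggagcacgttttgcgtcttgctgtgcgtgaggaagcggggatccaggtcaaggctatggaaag
Form B, exon 2, chr5:181193342-181193467, plus strand: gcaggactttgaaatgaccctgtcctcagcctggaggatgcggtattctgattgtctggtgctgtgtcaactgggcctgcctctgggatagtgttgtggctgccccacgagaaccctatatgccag
Last exon of both forms, from base 181194234, plus strand, first 30 bases: TTCCAGAAGCAAAAACAAAAAAAGTTCGGG

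CTC-338M12.5 had 1.94 and 3.40 RPKM in knockdown cells, from 12 and 19 reads, and 4.27 and 3.98 RPKM in wild-type cells, from 38 reads in each. Both knockdown values lay below both wild-type values, but the knockdown libraries differed from each other by more than the wild-type libraries did. Its log2 fold change of -0.72 ± 0.26 (SE) did not pass the test (limma, adjusted p = 0.0976, and between 0.0144 and 0.279 under 13 alternatives). The lowest of these came without knockdown replicate 2, where the estimate was -1.12. In that fit 1 knockdown library of 12 reads stood alone, and the spread came from the wild-type libraries. Limma-voom on all 4 libraries did not call the gene. CTC-338M12.6 had 0.477 and 0.469 RPKM in knockdown cells, from 9 and 8 reads, and 0.147 and 0.411 RPKM in wild-type cells, from 4 and 12 reads. It passed the filter on low values through the knockdown libraries alone. The change was 0.64 ± 0.37 on the log2 scale (SE; limma, adjusted p = 0.25), and wild-type replicate 1 set most of it, at 0.10 without that library. The antisense genes thus had estimates of opposite sign, and neither was called.

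**Figure D3:**
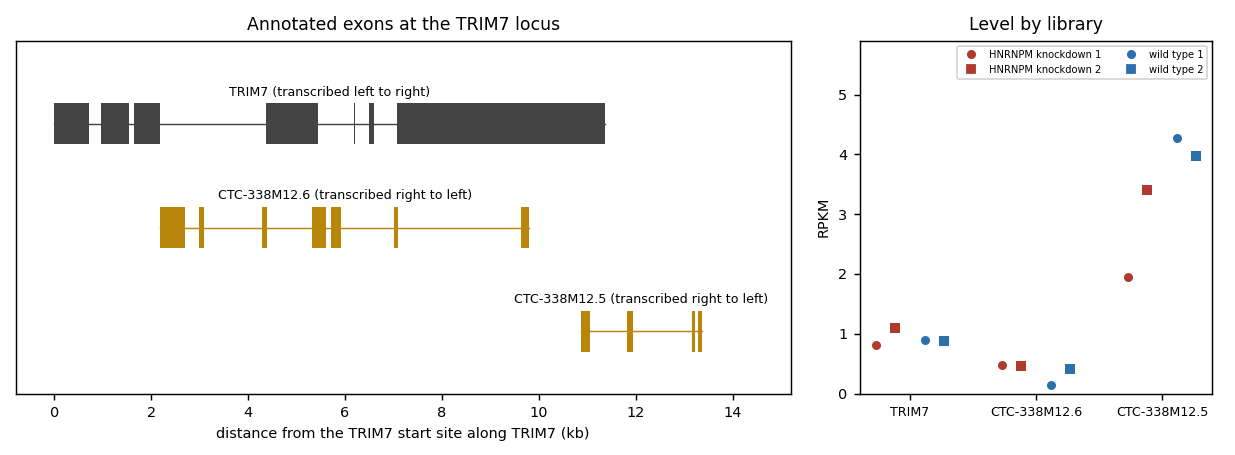
Left, annotated exons of TRIM7 and the 2 antisense genes, drawn to scale by distance from TRIM7's start along its direction of transcription in kilobases. Right, RPKM of the 3 genes in each library, where TRIM7 overlaps between groups and CTC-338M12.5 is lower in both knockdown libraries, at 1.94 and 3.40 RPKM against 4.27 and 3.98 RPKM.

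Other genes within 100 kb of TRIM7 gave a mixed picture. TRIM41, a ligase 17206 bases away, had 2.99 and 3.27 RPKM in knockdown cells and 3.19 and 3.58 RPKM in wild-type cells, and TRIM52, a further 18608 bases on, had 2.96 and 2.52 RPKM against 2.995 and 2.89 RPKM. Both had log2 fold changes of -0.17 ± 0.13 (SE) and overlapping groups. Of TRIM7, TRIM41 and TRIM52, 0 were called by limma, 0 had an unadjusted p under 0.05 and 0 were called by limma-voom. RACK1, a ribosomal scaffold protein and the most abundant neighbour, had 83.1 and 82.7 RPKM in knockdown cells and 74.8 and 59.8 RPKM in wild-type cells (log2 fold change 0.24 ± 0.11, limma, adjusted p = 0.157). SNORD96A, a small nucleolar RNA gene of 79 bases within RACK1's span, fell to 21.9 and 19.8 RPKM in knockdown cells, against 31.8 and 34.8 RPKM in wild-type cells (-0.73 ± 0.09, limma, adjusted p = 0.0062), but limma-voom on its reads did not call it (adjusted p = 0.0505). Its reads number 18 to 54 a library and cannot be told apart from RACK1 precursor RNA. CTC-338M12.4, a noncoding gene opposite TRIM52, fell to 1.69 and 1.71 RPKM in knockdown cells, against 2.44 RPKM in each wild-type library (-0.56 ± 0.13, limma, adjusted p = 0.0292). Leaving out any 1 library ended that call, with adjusted p between 0.0822 and 0.107.

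TRIM28, the scaffold that lets KRAB zinc finger proteins recruit repressive chromatin enzymes, was the most abundant member and fell. It had 51.3 and 54.9 RPKM in knockdown cells, from 2631 and 2547 reads, and 79.0 and 74.96 RPKM in wild-type cells, from 5839 and 5945 reads. The groups were well apart, and the log2 fold change of -0.60 ± 0.07 (SE; limma, adjusted p = 0.0065) was called in all 14 alternative fits. Knockdown cells held a 0.66 ratio to wild-type cells on that scale (95% interval 0.583 to 0.748). The other members of its class, which share a PHD finger and bromodomain, were not called. The class thus gave 1 lower call from 4 tested (25%, beside 13.8% of all genes called lower). TRIM33 had 6.10 and 5.89 RPKM in knockdown cells and 5.62 and 5.33 RPKM in wild-type cells, and TRIM24 had 5.41 and 5.49 RPKM against 5.19 and 4.83 RPKM. TRIM66 had 1.27 and 1.35 RPKM in knockdown cells against 1.72 and 1.64 RPKM in wild-type cells, a log2 fold change of -0.40 ± 0.14 (limma, adjusted p = 0.0944).

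Members of the COS box class, which bind microtubules or the sarcomere, gave 3 of the 6 higher calls, from 5 tested (60%, against 11.1% of all genes called higher). The class was drawn from TRIM symbols only. MID1 and MID2, TRIM proteins under other symbols, are outside it and were not called (log2 fold changes 0.11 and 0.19). TRIM46, which bundles microtubules at the start of the axon, had 0.625 and 0.633 RPKM in knockdown cells, from 36 and 33 reads, and 0.120 and 0.180 RPKM in wild-type cells, from 10 and 16 reads. The groups did not overlap, and its log2 fold change of 1.51 ± 0.21 (SE) was called (limma, adjusted p = 0.0089), also in all 4 fits that leave out 1 library. TRIM55, a muscle ring finger protein, had 0.281 and 0.423 RPKM in knockdown cells, from 11 and 15 reads, against 0.0354 and 0.0991 RPKM in wild-type cells, from 2 and 6 reads. Its log2 fold change was 1.41 ± 0.29 (limma, adjusted p = 0.0248), and the call ended without knockdown replicate 2 (adjusted p = 0.0773) or wild-type replicate 1 (adjusted p = 0.0905). TRIM55 passed the filter on low values through the knockdown libraries alone, and TRIM46 passed it partly through them. The 60% is therefore no test of the class. TRIM9, a ligase known from neurons, had 1.75 and 1.73 RPKM in knockdown cells and 0.854 and 1.05 RPKM in wild-type cells. The change of 0.75 ± 0.17 (limma, adjusted p = 0.0287) missed the threshold whichever library was left out, with adjusted p between 0.0533 and 0.101.

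The most abundant gene with a COS box was TRIM54, another muscle ring finger protein, with 3.59 and 4.15 RPKM in knockdown cells and 2.73 and 2.59 RPKM in wild-type cells. Its log2 fold change of 0.46 ± 0.13 lay just outside the threshold (limma, adjusted p = 0.0501, and between 0.0175 and 0.203 under 14 alternatives, 7 of which called it). TRIM36 had 0.167 and 0.114 RPKM in knockdown cells and 0.170 and 0.141 RPKM in wild-type cells. The class median log2 fold change was 0.75, with 4 of 5 above 0. The class sum was 6.43 and 7.06 RPKM in knockdown cells, against 3.92 and 4.07 RPKM in wild-type cells, of which TRIM54 was the greater part.

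Among the PRY-SPRY members known from interferon responses and virus restriction, 2 of 7 tested were called (28.6%, near the 24.9% of all genes called). Both were called higher, beside 11.1% of all genes. TRIM34, which binds retroviral capsids, had 3.48 and 3.14 RPKM in knockdown cells and 1.64 and 2.08 RPKM in wild-type cells (log2 fold change 0.74 ± 0.16, limma, adjusted p = 0.0265). TRIM6, which builds free ubiquitin chains in interferon signalling, had 2.83 and 3.22 RPKM in knockdown cells and 1.78 and 1.92 RPKM in wild-type cells (0.62 ± 0.14, limma, adjusted p = 0.0288). In both genes the knockdown libraries lay above the wild-type libraries, but the calls were not stable. Leaving out any 1 library ended the call of TRIM6 (adjusted p 0.0534 to 0.112). The call of TRIM34 ended without knockdown replicate 1 (adjusted p = 0.0876), knockdown replicate 2 (0.0525) or wild-type replicate 1 (0.0789). These genes lie 6806 bases apart on chromosome 11 and are also joined in the readthrough gene TRIM6-TRIM34, whose exons cover 83% of TRIM34's exon bases and 29.3% of those of TRIM6. TRIM6-TRIM34 had 5.04 and 4.95 RPKM in knockdown cells and 2.70 and 3.05 RPKM in wild-type cells (0.72 ± 0.11, limma, adjusted p = 0.0122). Without 1 library, log2 fold changes ran from 0.62 to 0.81 for TRIM6-TRIM34, 0.52 to 0.71 for TRIM6 and 0.57 to 0.91 for TRIM34. How reads in the shared exons were assigned is not stated, so the 3 increases may rest in part on the same reads.

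The rest of the antiviral class was not called. TRIM25, which ubiquitinates the RNA sensor RIG-I, had 11.1 and 10.8 RPKM in knockdown cells and 12.7 and 12.4 RPKM in wild-type cells, at -0.26 ± 0.07 (limma, adjusted p = 0.0529). It was called under limma-voom (adjusted p = 0.0123) and with a stricter filter (0.0406), and its adjusted p reached 0.224 elsewhere among 14 alternatives. TRIM21, the cytosolic antibody receptor, had 10.1 and 11.0 RPKM in knockdown cells and 8.26 and 9.28 RPKM in wild-type cells (0.20 ± 0.10, limma, adjusted p = 0.193). TRIM5, the retroviral capsid restriction factor, had 3.19 and 3.17 RPKM in knockdown cells and 3.49 and 3.92 RPKM in wild-type cells (-0.27 ± 0.12, limma, adjusted p = 0.143). TRIM26 and TRIM38 had log2 fold changes of -0.09 and -0.10. The class median was -0.09, with 3 above 0 and 4 below.

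A shared feature of some family promoters is the core of the interferon-stimulated response element, the site through which interferon switches genes on. RefSeq promoters, 300 bases each on GRCh38.p14, were at hand for 42 members, 60 in all. The letters GAAANNGAAA on either strand, which may overlap other copies of themselves, were in 9 of these 60 (15%), against 3.57% of 35116 promoters of all genes. The 9 belong to TRIM2, TRIM5, TRIM14, TRIM16, TRIM21, TRIM26, TRIM34, TRIM44 and TRIM69, of which TRIM34 alone was called. A few matches upstream of the start are shown to let TRIM34 be set beside members that did not pass, each 30 bases with the match in capitals. TRIM34 and TRIM5 hold the same letters, and the starts RefSeq gives for TRIM34, TRIM5 and TRIM69 lie inside those genes' spans in the tables.
TRIM34, chr11:5624901-5624930, plus strand: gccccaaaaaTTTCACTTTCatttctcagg
TRIM5, chr11:5685082-5685111, minus strand: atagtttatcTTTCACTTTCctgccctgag
TRIM69, chr15:44736456-44736485, plus strand: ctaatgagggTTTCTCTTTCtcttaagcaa
TRIM14, chr9:98119229-98119258, minus strand: acggccgaggTTTCGGTTTCccttgggagc

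The match started 90 bases before the start of TRIM34, 27 before TRIM5, 62 before TRIM69 and 26 before TRIM14. TRIM69 had 0.909 and 0.995 RPKM in knockdown cells and 0.654 and 0.555 RPKM in wild-type cells, apart but not called (0.53 ± 0.18, limma, adjusted p = 0.081). TRIM14 had 8.09 and 8.16 RPKM in knockdown cells and 8.65 and 7.55 RPKM in wild-type cells, which overlapped. Members with the same letters thus had estimates of both signs, from -0.27 for TRIM5 to 0.74 for TRIM34.

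The PRY-SPRY genes outside the antiviral class gave 3 of the 6 lower calls, from 14 tested (21.4%, near the 24.9% of all genes called). Over all genes, 13.8% were called lower. TRIM47, the most abundant of them, had 29.2 and 29.8 RPKM in knockdown cells and 38.5 and 34.4 RPKM in wild-type cells (log2 fold change -0.37 ± 0.08, limma, adjusted p = 0.0245). TRIM65, which ubiquitinates the RNA sensor MDA5, had 7.21 and 7.12 RPKM in knockdown cells and 8.93 and 9.60 RPKM in wild-type cells (-0.43 ± 0.09, limma, adjusted p = 0.0222). TRIM27, a nuclear and endosomal ligase, had 5.02 and 4.89 RPKM in knockdown cells and 6.62 and 6.93 RPKM in wild-type cells (-0.51 ± 0.09, limma, adjusted p = 0.016). All 3 were lower in both knockdown libraries than in either wild-type library. TRIM47 and TRIM65 lie 1760 bases apart on the minus strand of chromosome 17, and 51.5% of TRIM47's exon bases are shared with the noncoding gene RP11-552F3.9, so its reads may be divided.

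Leaving out a library ended most of these calls. TRIM47 missed the threshold without knockdown replicate 1 (adjusted p = 0.122), knockdown replicate 2 (0.0865) or wild-type replicate 1 (0.0557). TRIM65 missed it without knockdown replicate 1 (0.0867), knockdown replicate 2 (0.0827) or wild-type replicate 2 (0.0744), and TRIM27 without the same libraries (0.0601, 0.0621 and 0.063). Of the other 11 genes, TRIM4, which also acts on RIG-I, was the most abundant, with 11.5 and 11.3 RPKM in knockdown cells and 9.20 and 10.8 RPKM in wild-type cells (0.13 ± 0.10, limma, adjusted p = 0.389). No gene of the class was called higher by limma, where 1 was higher at an unadjusted p under 0.05 and by limma-voom. The class median was -0.09, with log2 fold changes from -0.51 to 0.53.

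Single calls also came from 3 smaller classes. They were 1 of 2 transmembrane members tested and 1 of 3 with a MATH, ARF or filamin domain, both lower. The third was 1 of 5 with a RING finger and no further carboxyl domain, called higher. Over all genes, 13.8% were called lower and 11.1% higher. TRIM59, a ligase held in membranes, had 2.08 and 2.41 RPKM in knockdown cells and 3.87 and 3.56 RPKM in wild-type cells. Its log2 fold change was -0.77 ± 0.13 (limma, adjusted p = 0.0148). Without wild-type replicate 1 (adjusted p = 0.0653) or wild-type replicate 2 (0.0542) it was not called, and 34.3% of its exon bases are shared with SMC4 and RP11-432B6.3. TRIM13, the other transmembrane member, had 0.721 and 0.710 RPKM in knockdown cells and 0.878 and 1.08 RPKM in wild-type cells (-0.45 ± 0.18, limma, adjusted p = 0.119). TRIM45, which carries a filamin domain, had 0.703 and 0.697 RPKM in knockdown cells, from 39 and 35 reads, and 1.04 and 1.22 RPKM in wild-type cells, from 83 and 105 reads. The change of -0.67 ± 0.17 (limma, adjusted p = 0.0408) missed the threshold whichever library was left out (adjusted p 0.0804 to 0.162). TRIM37, a MATH domain ligase of centrosomes, had 6.98 and 5.93 RPKM in knockdown cells and 7.77 and 6.90 RPKM in wild-type cells, and TRIM23, with an ARF domain, 1.92 and 1.88 RPKM against 1.74 and 1.94 RPKM.

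TRIM31, a ligase of the antiviral adaptor MAVS and of the inflammasome, was the only one of the 10 most abundant members called higher. It had 20.7 and 23.2 RPKM in knockdown cells, from 931 and 942 reads, and 14.7 and 15.8 RPKM in wild-type cells, from 954 and 1097 reads. The groups were apart, with a log2 fold change of 0.46 ± 0.09 (limma, adjusted p = 0.0219). The call ended without knockdown replicate 2 (adjusted p = 0.0967) or wild-type replicate 1 (0.0714). TRIM8, which acts in cytokine signalling, had 19.6 and 20.8 RPKM in knockdown cells and 20.54 and 19.3 RPKM in wild-type cells, and its log2 fold change of -0.04 ± 0.07 turned to 0.02 on values scaled to total reads only. TRIM56, which is known for antiviral activity, had 12.56 and 13.4 RPKM in knockdown cells and 13.5 and 15.8 RPKM in wild-type cells. Its change of -0.23 ± 0.11 was not called (limma, adjusted p = 0.162, and between 0.0318 and 0.445 under 14 alternatives).

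The near-identical genes TRIM73 and TRIM74 on chromosome 7 had estimates of opposite sign. TRIM74 had 3.37 and 3.55 RPKM in knockdown cells and 1.74 and 2.70 RPKM in wild-type cells (0.59 ± 0.22, limma, adjusted p = 0.104). TRIM73 had 0.965 and 1.22 RPKM in knockdown cells and 1.29 and 1.68 RPKM in wild-type cells (-0.46 ± 0.21, limma, adjusted p = 0.154). Reads of these copies, and of TRIM16 and its partial copy TRIM16L, can be split between them by the counting, so the single values are uncertain.

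The NHL repeat class and the class without a RING finger held no call. Among NHL genes, TRIM32, a ligase of muscle proteins, led with 6.60 and 6.05 RPKM in knockdown cells and 7.28 and 6.71 RPKM in wild-type cells (-0.21 ± 0.09, limma, adjusted p = 0.158). TRIM2 had 4.11 and 3.65 RPKM in knockdown cells and 3.35 and 3.32 RPKM in wild-type cells, while TRIM3 and TRIM71 overlapped between groups. The 4 NHL genes numbered 0 called by limma, 0 at an unadjusted p under 0.05 and 0 by limma-voom. In the class without a RING finger, TRIM16 had 21.5 and 20.51 RPKM in knockdown cells and 19.7 and 17.5 RPKM in wild-type cells, and TRIM16L had 14.6 and 14.5 RPKM against 16.0 and 14.4 RPKM. TRIM29 had 0.223 and 0.0936 RPKM in knockdown cells, from 29 and 11 reads, and 0.0267 and 0.0348 RPKM in wild-type cells, from 5 and 7 reads (0.91 ± 0.30, limma, adjusted p = 0.0783). TRIM44 had 8.72 and 8.62 RPKM in knockdown cells and 7.10 and 7.17 RPKM in wild-type cells (0.21 ± 0.08, limma, adjusted p = 0.101). Of the 5 genes without a RING finger, 0 were called by limma, while TRIM29 and TRIM44 were higher at an unadjusted p under 0.05 and by limma-voom. TRIM29 passed the filter on low values through the knockdown libraries alone, so these counts are no test of the class. The pseudogene TRIM80P had 0.746 and 0.580 RPKM in knockdown cells and 0.575 and 0.661 RPKM in wild-type cells, which overlapped.

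**Figure D4:**
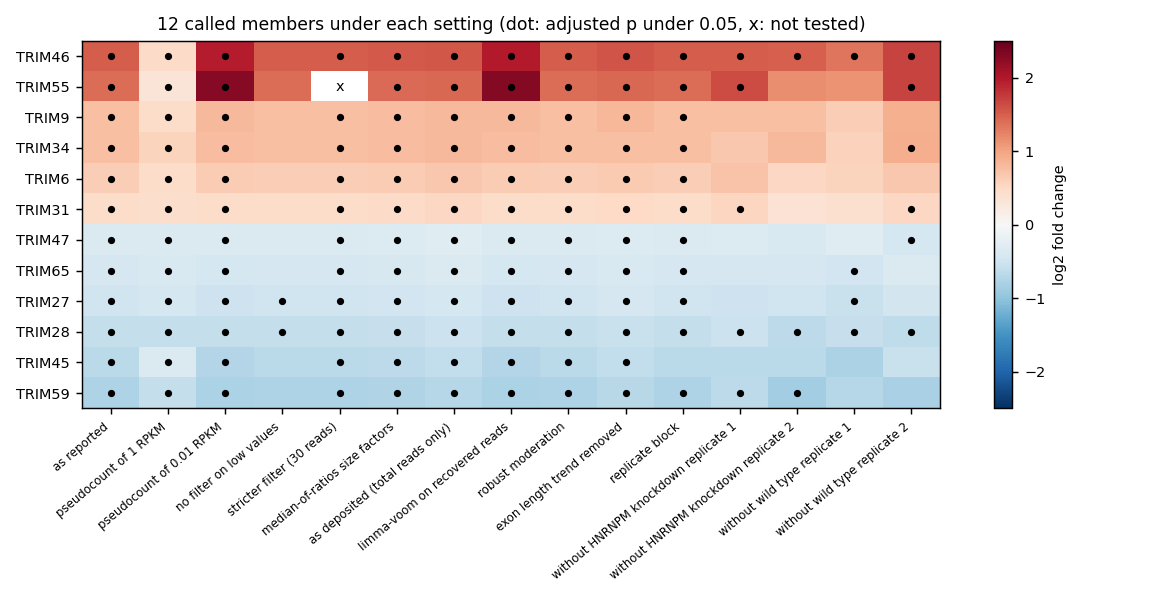
Log2 fold change of the 12 called members (rows) under the reported fit and each alternative (columns), with a dot where the adjusted p was under 0.05 and an x where the gene was not tested. Every member kept its colour in all columns, while dots are missing for 10 of the 12 in at least 1 of the 4 columns that leave out a library, with TRIM28 and TRIM46 keeping theirs.

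Genes that work with TRIM proteins were followed in lists, whose members lie outside the family as defined above. Among TRIM proteins with other symbols, 1 of 4 tested was called (25%, beside 24.9% of all genes). PML, which organises nuclear bodies, had 6.59 and 7.12 RPKM in knockdown cells and 4.53 and 5.10 RPKM in wild-type cells (0.44 ± 0.11, limma, adjusted p = 0.039), though without any 1 library the adjusted p rose to between 0.0565 and 0.15. Of 15 ubiquitin E1 and E2 enzymes, 4 were called higher and 1 lower (33.3%, against 24.9% of all genes), with a median log2 fold change of 0.18. UBE2V1, a catalytically inactive E2 partner, rose to 34.7 and 33.2 RPKM in knockdown cells, against 19.1 and 18.7 RPKM in wild-type cells (0.77 ± 0.06, limma, adjusted p = 0.0042). Its relative UBE2V2 had 6.18 and 5.86 RPKM in knockdown cells and 4.15 and 3.65 RPKM in wild-type cells (0.55 ± 0.11, limma, adjusted p = 0.0194). UBE2E1, an E2, had 16.7 and 14.1 RPKM in knockdown cells and 9.66 and 9.51 RPKM in wild-type cells (0.61 ± 0.10, limma, adjusted p = 0.0128). The fourth higher call, UBE2L3, an E2 of RING and HECT ligases, had 9.12 and 9.11 RPKM in knockdown cells and 6.96 and 6.61 RPKM in wild-type cells (0.36 ± 0.08, limma, adjusted p = 0.0293, or 0.061 to 0.125 without any 1 library). UBA1, the main E1 that activates ubiquitin, had 37.7 and 41.1 RPKM in knockdown cells and 52.1 and 51.0 RPKM in wild-type cells (-0.45 ± 0.07, limma, adjusted p = 0.0132). Calls ended for UBE2E1 without wild-type replicate 2 (adjusted p = 0.0515), for UBA1 without knockdown replicate 1 (0.0813), and for UBE2V2 without knockdown replicate 1 (0.0788), knockdown replicate 2 (0.056) or wild-type replicate 2 (0.0657).

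Of 4 genes whose products bind TRIM7 or are its substrates, 1 was called higher and 1 lower, beside 11.1% and 13.8% of all genes. RNF187, a coactivator of the transcription factor c-Jun that TRIM7 stabilises, rose to 35.3 and 37.3 RPKM in knockdown cells, against 25.5 and 25.1 RPKM in wild-type cells (0.46 ± 0.07, limma, adjusted p = 0.0104, or 0.0611 without knockdown replicate 2). SRC, a tyrosine kinase, had 25.4 and 25.1 RPKM in knockdown cells and 30.3 and 27.6 RPKM in wild-type cells (-0.26 ± 0.07, limma, adjusted p = 0.0498), a call that 11 of 14 alternatives did not keep, including each fit without 1 library (adjusted p 0.0519 to 0.202). The glycogenins GYG1 and GYG2 were not called.

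The partners of TRIM28 in chromatin repression moved in both directions, with 2 called higher and 1 lower of 8 (37.5%, beside 24.9% of all genes) and a median of 0.11. CBX1, a heterochromatin protein, had 26.7 and 24.9 RPKM in knockdown cells and 18.8 and 19.1 RPKM in wild-type cells (0.38 ± 0.07, limma, adjusted p = 0.0179). CHD3, a subunit of a nucleosome remodelling and deacetylase complex, had 39.4 and 39.6 RPKM in knockdown cells and 31.1 and 32.2 RPKM in wild-type cells (0.26 ± 0.07, limma, adjusted p = 0.0414). ATF7IP, which stabilises the histone methyltransferase SETDB1, had 6.32 and 5.57 RPKM in knockdown cells and 7.25 and 8.36 RPKM in wild-type cells (-0.45 ± 0.12, limma, adjusted p = 0.0427). Leaving out any 1 library ended the calls of CHD3 (adjusted p 0.0555 to 0.203) and ATF7IP (0.0507 to 0.152), and that of CBX1 ended without knockdown replicate 1 (0.109) or knockdown replicate 2 (0.0595).

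In the RIG-I pathway, in which TRIM25 acts, 7 genes were tested and 1 was called lower (14.3%, beside 24.9% of all genes). All 7 estimates were below 0 after correction for composition, but MAVS, TBK1 and TRAF3 were above 0 on values scaled to total reads only. None was called higher by limma, at an unadjusted p under 0.05 or by limma-voom. ZC3HAV1, a zinc finger antiviral protein that works with TRIM25, fell to 6.001 and 5.97 RPKM in knockdown cells, against 10.2 and 9.58 RPKM in wild-type cells (-0.78 ± 0.08, limma, adjusted p = 0.0053). Of 16 interferon-stimulated genes tested, 5 were called higher and 1 lower (37.5%, beside 24.9% of all genes), with a median of 0.31 and 13 estimates above 0. BST2, which tethers budding virions, had 1.27 and 1.399 RPKM in knockdown cells and 0.439 and 0.409 RPKM in wild-type cells (1.39 ± 0.17, limma, adjusted p = 0.0065). These values rest on 18 reads in each knockdown library and 9 in each wild-type library. BST2 passed the filter on low values through the knockdown libraries alone. OAS1, a sensor of double-stranded RNA, had 24.1 and 23.5 RPKM in knockdown cells and 13.5 and 11.2 RPKM in wild-type cells (0.89 ± 0.10, limma, adjusted p = 0.0059). ISG15, a ubiquitin-like modifier, had 17.0 and 17.6 RPKM in knockdown cells and 11.9 and 11.4 RPKM in wild-type cells (0.50 ± 0.07, limma, adjusted p = 0.0093). The remaining higher calls were IFITM1, which hinders virus entry (0.99 ± 0.22, limma, adjusted p = 0.0273), and IFI27 (0.90 ± 0.23, limma, adjusted p = 0.0421). That of IFITM1 ended without knockdown replicate 1 (adjusted p = 0.0817), wild-type replicate 1 (0.106) or wild-type replicate 2 (0.0642), and that of IFI27 without knockdown replicate 1 (0.0849), knockdown replicate 2 (0.101) or wild-type replicate 1 (0.1). IFI6, also induced by interferon, went the other way, with 1.73 and 1.51 RPKM in knockdown cells and 3.53 and 2.999 RPKM in wild-type cells (-1.03 ± 0.15, limma, adjusted p = 0.0089). MX1, also on that list, had a log2 fold change of -0.53 and stood under 0.3 RPKM in every library.

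**Figure D5:**
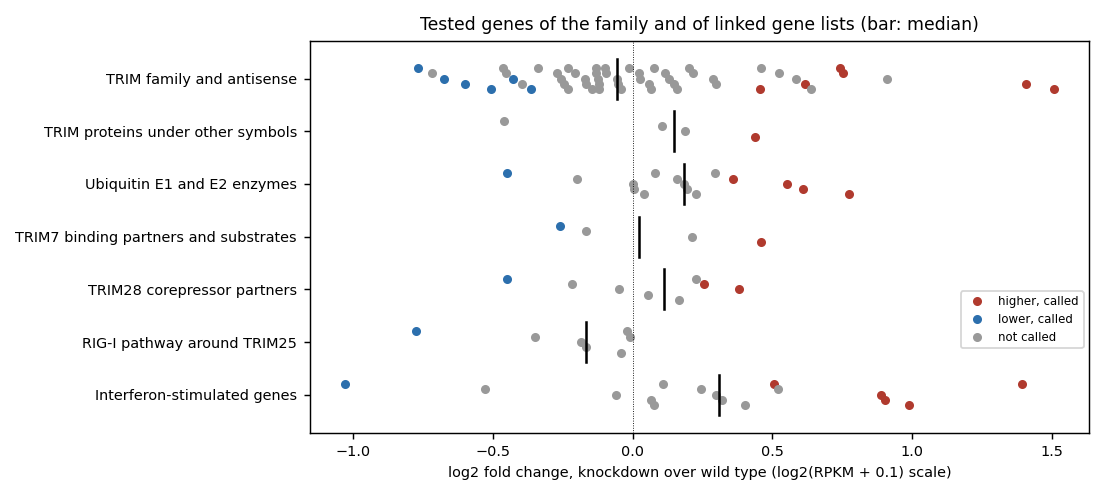
Log2 fold change, knockdown over wild type, of each tested gene in the family and in 6 linked lists, with called genes in red (higher) or blue (lower), others in grey and a black bar at each list's median. The family's median lies at -0.06, the RIG-I list's at -0.17 and the interferon-stimulated list's at 0.31. Each list spans 0 except the RIG-I list, in which 3 of 7 genes lie above 0 on values scaled to total reads only.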

How the data were processed

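RNA was measured in 4 libraries of MHCC97H cells, 2 of HNRNPM knockdown and 2 of wild type. Per the labels' protocols, total RNA was depleted of ribosomal RNA, made into strand-keeping libraries with 8-base molecular identifiers and sequenced as paired reads of 150 bases. The submitters' processing notes name Trimmomatic 0.36, featureCounts of Subread 1.5.1, StringTie 1.3.2 and edgeR 3.12.1. No aligner, strand setting or handling of the identifiers is named there. The deposited tables hold 1 RPKM value per gene name, which the authors derived from exon reads, exon length being a column per the file headers. The notes name mm9, but the coordinates are human: all 57 TRIM symbols lay on the same chromosome in GENCODE release 29 (GRCh38), and 53 had the same start and end.

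RPKM times exon length gave whole reads for 100% of values, within 0.01 of a read, which yielded the depths. RPKM was divided by TMM factors from these reads (1.03 and 1.02 in knockdown, 0.984 and 0.972 in wild type) and log2(RPKM + 0.1) was fitted by limma 3.58.1 under R 4.3.3. The model held group alone, the spread was moderated along the mean level, and p-values were adjusted by Benjamini-Hochberg over 20221 genes, with calls at an adjusted p under 0.05. Genes needed the equivalent of 10 reads in 2 libraries, at median depth, and 15 reads in all. Limma-voom was run on the recovered reads as an alternative, with other pseudocounts (1 and 0.01), filters (none, or 30 reads), scalings, robust moderation, removal of an exon length trend, the replicate number as a block, and each library left out. The fit was also run on simulated data with a small share of genes changed by known folds, a simpler setting than these data. That run gives no error rate for the calls here. Members, classes and lists were chosen with earlier results of these data known. Named genes are HNRNPM, the TRIM7 locus, all called members, the 10 most abundant, the most abundant of each class, called or abundant genes within 100 kb of TRIM7, and up to 4 called genes of each list. Other genes are named beside them to complete a class, after their values were seen. Markers GPC3 and CD3E were not analysed here.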

Additional observations from a re-analysis of the deposited data

How the results depend on the processing

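With no filter on low values, limma called 0 members higher and 2 lower, against 6 and 6, while 8 and 9 had an unadjusted p under 0.05. Limma-voom called 11 higher and 12 lower, including all 12 of the reported calls. It called 35.8% of all genes, against 24.9% in the reported fit. Leaving out 1 library gave 1 to 5 higher and 2 to 3 lower calls, each fit assuming that the lone library varies like the other group. All 12 called members kept their direction in every alternative that tested them. The family's median of -0.06 moved to -0.095 with the stricter filter, -0.034 with median-of-ratios factors, 0.0065 on values scaled to total reads only and -0.024 with the exon length trend removed, and the cause was not tested. Scaling moved the median of all genes by at most 0.059.

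Without 1 library, TRIM7 lay between -0.17 and 0.22 (sign turned without knockdown replicate 2) and CTC-338M12.5 between -1.12 and -0.32. TRIM8 lay between -0.096 and 0.0089 and was 0.020 on values scaled to total reads only. TRIM80P lay between -0.12 and 0.18 and CTC-338M12.7, antisense to TRIM41, between -0.43 and 0.070. Same-numbered libraries deviated together with a correlation of 0.0628, so the numbers were not taken as pairs. With the replicate block, limma called 6 members higher and 5 lower, TRIM45 being the one not called (adjusted p = 0.0532). The antisense genes rest on 4 to 38 reads a library, which limits how closely they are measured.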
